A study of Mus musculus with 10 samples.

Results

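Interferon-stimulated genes and the factors that switch them on were followed in cerebral cortex of mice with a conditional knockout of Brap (BrapcKO) and of control mice. The group is 9 genes given by name, Stat2, Irf9, Oasl2, Trim30a, Gbp3, Eif2ak2, Ifih1, Parp14 and Bst2, and all 9 were found among the 14276 genes of the count table by matching Ensembl identifiers to symbols. The study sequenced total RNA, freed of ribosomal RNA, from cortex of C57BL/6 mice 3 months old, in 5 libraries per group, and asked how the cortical transcriptome of the knockout differs from that of control littermates. Brap encodes the BRCA1-associated protein, which attaches ubiquitin to other proteins and is known for holding back Ras signalling through its scaffold KSR.

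Each library is called by its group and title number. Control 08, 22 and 23 carried 1 floxed and 1 wild-type Brap allele without Cre (flox/wt Cre-), and control 09 and 24 carried 2 floxed alleles without Cre (flox/flox Cre-). BrapcKO 04, 07 and 21 were flox/ko Cre+, and BrapcKO 05 and 06 were flox/flox Cre+. Every BrapcKO library was thus Cre+ and every control Cre-, so an effect of Cre and an effect of the deletion cannot be told apart. The sources used here give neither the promoter that drives Cre, nor the cells in which it acts, nor the deleted exons. The titles also carry a code, B1 (control 08 and 09, BrapcKO 04, 05, 06 and 07) or B2 (control 22, 23 and 24, BrapcKO 21), whose meaning is not stated. The code was a term in every comparison below unless another model is named.

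Interferons are secreted proteins that warn cells of infection. Type I interferons bind a receptor whose Janus kinases phosphorylate STAT proteins, and STAT2 then joins IRF9 in the complex ISGF3, which binds the interferon-stimulated response element (ISRE) in the promoters of its target genes. The targets include sensors of foreign RNA, which can set off more interferon, and effectors that block translation, capture virions or modify proteins, and in brain they are known to be active in microglia, astrocytes and neurons.

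The promoters were searched for the core of the ISRE, GAAANNGAAA, on both strands, because it is the sequence through which ISGF3 acts. The windows came from the RefSeq promoter table of build GRCm38.p6, 250 bases before and 50 bases from the start of each transcript, and 8 of the 9 genes, all but Parp14, were matched by symbol. The core was found in 6 genes and was not found in these windows of Oasl2 and Irf9. The following stretches, read 5′ to 3′ along the gene's own strand, show the matches of 1 promoter per gene in capitals, written as TTTCNNTTTC where the core lies on the opposite strand. A second Trim30a promoter in the table, not shown, held the core on the opposite strand at bases 3 to 12.
Stat2, chr10:128270248-128270317, plus strand: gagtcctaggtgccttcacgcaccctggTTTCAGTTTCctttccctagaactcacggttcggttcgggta
Ifih1, chr2:62646206-62646235, minus strand: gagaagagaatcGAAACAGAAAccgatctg
Trim30a, chr7:104465204-104465273, minus strand: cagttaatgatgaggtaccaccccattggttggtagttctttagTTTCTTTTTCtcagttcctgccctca
Gbp3, chr3:142559954-142560023, plus strand: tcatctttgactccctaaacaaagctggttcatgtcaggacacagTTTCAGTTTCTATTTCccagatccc
Eif2ak2, chr17:78882534-78882563, minus strand: gtccgccggGAAAACGAAAcagaagagaac
Bst2, chr8:71537573-71537642, minus strand: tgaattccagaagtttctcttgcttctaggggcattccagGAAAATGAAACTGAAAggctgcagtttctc
Gbp3 and Bst2 each held a pair of overlapping cores. Counted from the transcript start, those of Gbp3 lay at bases -45 to -36 and -39 to -30, that of the Trim30a promoter shown at -36 to -27, that of Stat2 at -222 to -213 and those of Bst2 at -130 to -121 and -124 to -115. The cores of Ifih1 (bases 33 to 42) and Eif2ak2 (bases 19 to 28) lay just after the start. The core was present in 3.44% of the 32851 promoters of the RefSeq table. Among the genes of the interferon pathway lists used further on, 36 of the 120 with an entry held it (30.0%), against 396 of 11159 genes tested (3.55%). The gamma-activated site (GAS), a binding element of STAT dimers, searched as TTCNNNGAA (palindromic, so the same on both strands), was present in Bst2, overlapping its ISRE core, and in Eif2ak2, and in 8.30% of all promoters. A match describes the letters in the window and is no evidence of binding.

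Total counts ran from 17188901 to 28991874 per library, lower in the 6 B1 libraries (at most 20955211) than in the 4 B2 libraries (at least 26356508). The 9 genes were lowly to moderately expressed, and the fewest counts behind a value were 19 for Bst2, 24 for Oasl2 and 36 for Trim30a. Libraries of the same group and code differed by more than sampling noise (chi-square per degree of freedom 7.15 at the least), and none was a repeat of another. The labels do not state that each library is a separate animal, so p-values measure the spread between libraries, which may in part be technical. Brap itself stood at 88.4 ± 8.58 CPM (counts scaled to library totals with TMM; SD, n = 5) in control and 103.8 ± 9.15 in the libraries labelled BrapcKO (log2 fold change 0.23, adjusted p 0.182), so gene counts, which may include reads outside the deleted exons, did not show a loss of Brap. Control 23 and BrapcKO 05, 06, 07 and 21 held summed reads of 4 Y-linked genes at 263 to 288 CPM, and the other 5 libraries at no more than 0.257 CPM. BrapcKO 05 stood apart in microglial transcripts, as described with the results below. In bulk tissue, more cells of a type and more RNA per cell cannot be told apart, and this holds for every value that follows.

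In the libraries labelled BrapcKO, 7 of the 9 genes had log2 fold changes between 0.26 (Irf9) and 1.09 (Bst2), and those of Stat2 and Ifih1 were 0.07 and 0.00. Trim30a and Gbp3 were higher in all 5 BrapcKO libraries than in any control, a separation that 3.12% of all genes showed in that direction. None of the 9 passed an adjusted p of 0.05 in edgeR's quasi-likelihood test with the title code as a term, in which 8.07% of the 14276 genes passed. At an unadjusted p under 0.05 there were 5 of the 9 (Trim30a, Bst2, Oasl2, Gbp3 and Eif2ak2), where 22.2% of all genes had such a p. The median log2 fold change was 0.45 over the 9 genes and 0.01 over all genes tested. The 9 genes were chosen with earlier results of these data known, so these contrasts with all genes do not test them. Trim30a came closest to the threshold (adjusted p 0.0538) and passed it by edgeR's likelihood-ratio test (0.0163, 10.6% of genes passing) and by DESeq2 (0.012, 11.8%), but not by limma-voom (0.0718, 8.2%). The 8 other genes passed in none of these. With the mean log2 CPM of the 4 Y-linked genes as a further term, a level high in 4 of 5 BrapcKO and 1 of 5 control libraries, the median was 0.29. In that model 0 of the 9 genes passed and 0 had an unadjusted p under 0.05, against 14.8% of all genes, and Eif2ak2 was 0.14 and Irf9 0.09. Reads of Y-linked genes mark male tissue, so by this measure the groups differed in sex. The Y-linked level, and with it sex, cannot be fully told apart from the group.

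**Figure D1:**
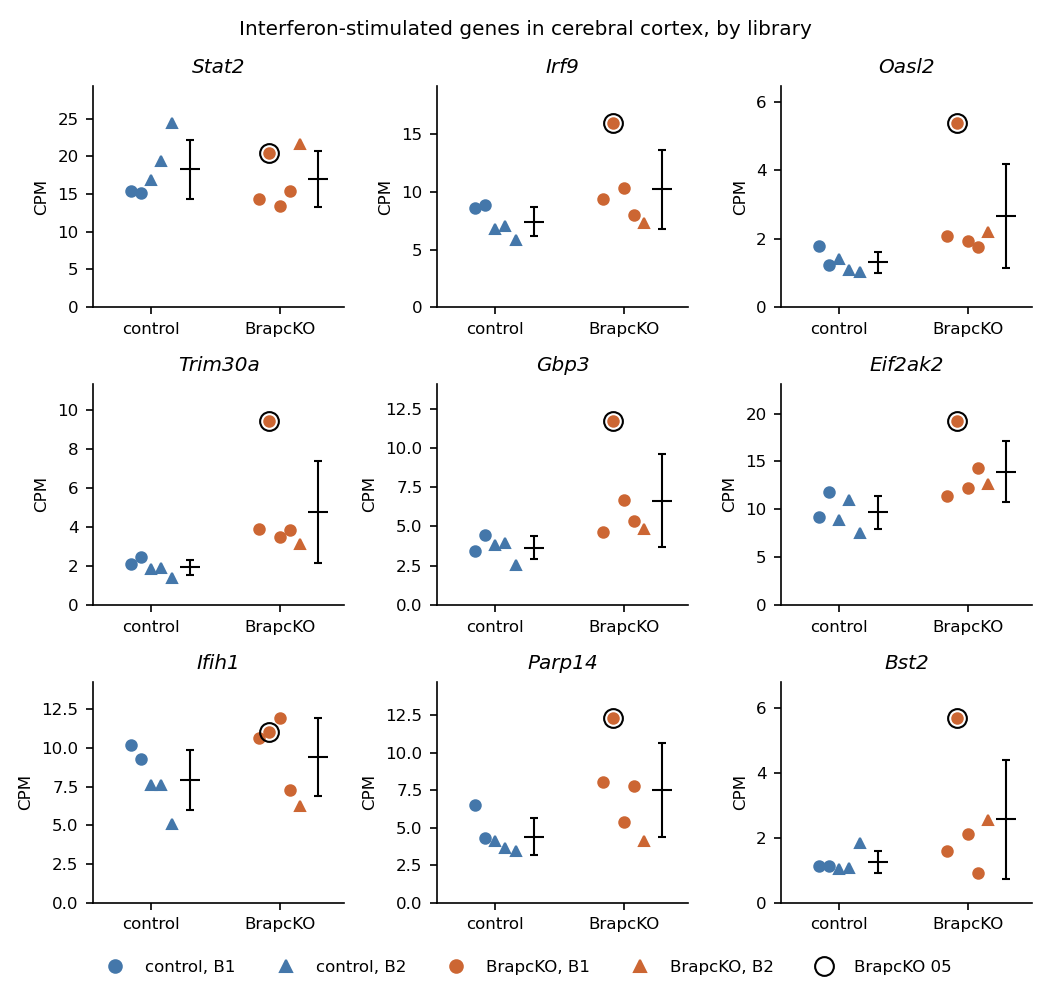
CPM of each of the 9 genes in every library, with control in blue, BrapcKO in orange, circles for title code B1 and triangles for B2, and BrapcKO 05 ringed. The horizontal and vertical bars give the mean and SD of 5 libraries, and the groups do not overlap for Trim30a and Gbp3.

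The transcription factors stand first in the order of the pathway, and both overlapped between the groups. Stat2, the STAT protein particular to type I and type III interferon signalling, stood at 15.5, 15.1, 16.9, 19.4 and 24.4 CPM in control 08, 09, 22, 23 and 24 and at 14.4, 20.4, 13.4, 15.4 and 21.6 CPM in BrapcKO 04, 05, 06, 07 and 21. The groups overlapped, with BrapcKO 04 and 06 below every control and no BrapcKO library above the highest control. Its log2 fold change was 0.07 (95% interval -0.24 to 0.38, adjusted p 0.825). Irf9, the DNA-binding part of ISGF3, stood at 8.60, 8.90, 6.79, 7.05 and 5.86 CPM in the controls and at 9.44, 16.01, 10.4, 7.97 and 7.33 CPM in the BrapcKO libraries, in the same order. BrapcKO 04, 05 and 06 lay above every control, and BrapcKO 07 and 21 lay within the control range. The log2 fold change of Irf9 was 0.26 (-0.14 to 0.66, adjusted p 0.451).

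Ifih1 encodes MDA5, a cytoplasmic sensor of long double-stranded RNA. It stood at 10.2, 9.26, 7.62, 7.57 and 5.09 CPM in the controls and at 10.6, 11.0, 11.9, 7.28 and 6.23 CPM in the BrapcKO libraries. Apart from BrapcKO 07, every B1 library lay above every B2 library, and the groups overlapped within each code. The group difference with the code as a term was 0.00 (-0.37 to 0.38, adjusted p 0.995).

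Trim30a and Gbp3 separated the groups. Trim30a, a mouse TRIM protein known to restrain signalling from Toll-like receptors, stood at 2.09, 2.47, 1.84, 1.88 and 1.39 CPM in the controls and at 3.89, 9.43, 3.49, 3.86 and 3.12 CPM in the BrapcKO libraries. The 5 BrapcKO libraries were all above the controls, within B1 and within B2 as well, and BrapcKO 05 was 2.57 times the median of the other 4. The mean was 1.93 ± 0.394 CPM in control and 4.76 ± 2.63 CPM in BrapcKO (SD, n = 5), or 3.59 ± 0.364 CPM over the 4 libraries other than BrapcKO 05. Its log2 fold change was 1.06 (SE 0.31, 95% interval 0.39 to 1.73). A two-sided exact permutation test over all 252 arrangements of 5 against 5 gave p = 0.00794, the smallest that design allows, and 0.0167 over the 60 arrangements within title codes, again the smallest.

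The call on Trim30a turned on the model and on single libraries. With group as the only term its log2 fold change was 1.30 (adjusted p 0.041, 4.32% of genes passing), and that call held without BrapcKO 05 (0.90, adjusted p 0.0279) and without BrapcKO 21, and was lost without any of the other 8 libraries (adjusted p up to 0.1). With the title code as a term it passed without BrapcKO 05 (0.79, SE 0.18, adjusted p 0.0187, 9.58% of genes passing) and without BrapcKO 06 (1.15, adjusted p 0.0487, 6.62%). With the Y-linked term the fold change was 0.76 (adjusted p 0.426, 2.08%).

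Gbp3 belongs to the guanylate-binding proteins, interferon-induced GTPases that act on membranes around intracellular pathogens. It stood at 3.41, 4.48, 3.84, 3.94 and 2.54 CPM in the controls and at 4.67, 11.7, 6.66, 5.33 and 4.85 CPM in the BrapcKO libraries. The gap between the groups was narrow, from 4.48 CPM in control 09 to 4.67 CPM in BrapcKO 04, and BrapcKO 05 again stood far above the rest. The log2 fold change was 0.71 (0.12 to 1.31, adjusted p 0.144), or 0.50 without BrapcKO 05. With the Y-linked term it was 0.29 (SE 0.34, adjusted p 0.763). The exact permutation p was 0.00794 over all arrangements and 0.05 within title codes.

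The other effectors overlapped between groups. Oasl2, a mouse oligoadenylate synthetase-like protein, stood at 1.78, 1.23, 1.42, 1.08 and 1.04 CPM in the controls and at 2.07, 5.39, 1.94, 1.76 and 2.20 CPM in the BrapcKO libraries. All BrapcKO libraries except BrapcKO 07 exceeded every control, and BrapcKO 07 lay just under control 08. The log2 fold change was 0.88 (0.13 to 1.63, adjusted p 0.152), with an exact permutation p of 0.0159 over all arrangements and 0.0833 within title codes. Eif2ak2, the kinase PKR that halts translation when it binds double-stranded RNA, stood at 9.16, 11.8, 8.90, 11.0 and 7.55 CPM in the controls and at 11.4, 19.3, 12.2, 14.3 and 12.6 CPM in the BrapcKO libraries. Here too 4 BrapcKO libraries were above all controls, and BrapcKO 04 was below control 09. Its log2 fold change was 0.45 (0.08 to 0.82, adjusted p 0.138), with an exact permutation p of 0.0159 over all arrangements and 0.0667 within title codes.

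Parp14, an enzyme that attaches single ADP-ribose units to proteins, stood at 6.51, 4.32, 4.16, 3.63 and 3.43 CPM in the controls and at 8.09, 12.3, 5.38, 7.77 and 4.11 CPM in the BrapcKO libraries. Control 08 was above BrapcKO 06 and 21, so the groups overlapped. The log2 fold change was 0.45 (-0.06 to 0.97, adjusted p 0.293). Bst2, or tetherin, which holds budding virions to the cell surface, stood at 1.12, 1.13, 1.04, 1.08 and 1.85 CPM in the controls and at 1.61, 5.67, 2.12, 0.928 and 2.55 CPM in the BrapcKO libraries. BrapcKO 07 held the lowest value of all 10 libraries and BrapcKO 05 the highest. The log2 fold change of Bst2 was 1.09, as large as that of Trim30a but less certain (SE 0.46, 0.10 to 2.08, adjusted p 0.18), and the exact permutation p was 0.103, or 0.117 within title codes.

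**Figure D2:**
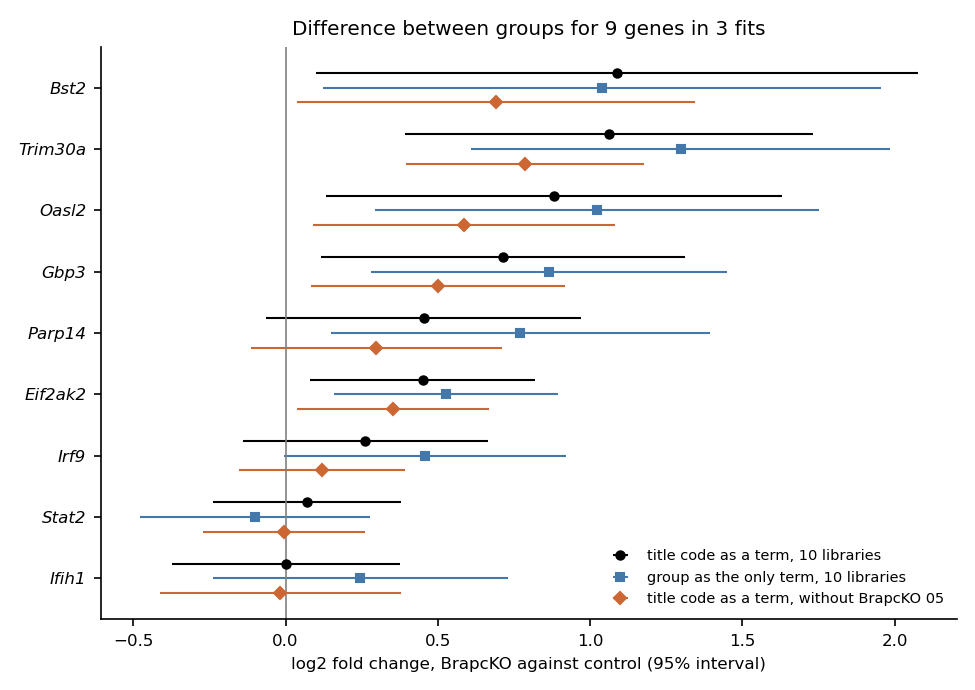
Log2 fold change of BrapcKO against control with its 95% interval for each of the 9 genes in 3 edgeR models: title code as a term (black), group as the only term (blue) and title code as a term without BrapcKO 05 (orange). Bst2, Trim30a, Oasl2 and Gbp3 are highest, Stat2 and Ifih1 lie near 0, and 8 of the 9 estimates are nearer to 0 without BrapcKO 05 than with it.

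On the scale of RPKM, in which CPM are divided by the length of exon so that levels can be compared between genes, Stat2 was the most abundant in control cortex (3.08 ± 0.649, SD, n = 5) and Eif2ak2 followed (1.89 ± 0.334). Irf9 (1.38 ± 0.238), Bst2 (1.38 ± 0.377), Gbp3 (1.12 ± 0.221) and Ifih1 (0.973 ± 0.238) came next, and along this order each mean differed from the one after it by less than the larger of the SDs. Parp14 (0.474 ± 0.132) and Trim30a (0.470 ± 0.096) were level, and Oasl2 was the lowest (0.206 ± 0.047). In the BrapcKO libraries the mean RPKM was 2.87 ± 0.630 for Stat2, 2.85 ± 2.03 for Bst2 and 2.73 ± 0.617 for Eif2ak2 (SD, n = 5). Over the 4 libraries other than BrapcKO 05 it was 2.73 ± 0.625, 1.996 ± 0.773 and 2.47 ± 0.239.

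A count per library shows how far the pattern was shared. Of the 9 genes, 6 were above all 5 controls in BrapcKO 04, 8 in BrapcKO 05, 7 in BrapcKO 06, 4 in BrapcKO 07 and 5 in BrapcKO 21. The matching shares of all genes were not computed, so these counts do not show whether the 9 genes differ from other genes. The mean over the 9 genes of log2 (CPM + 0.5), taken relative to the control mean, was 0.39, 1.26, 0.43, 0.29 and 0.30 in these 5 libraries and 0.13, 0.11, -0.04, -0.02 and -0.18 in control 08, 09, 22, 23 and 24. The lowest BrapcKO value thus exceeded the highest control value, and BrapcKO 05 exceeded the next library by more than the whole range of the controls. BrapcKO 05 held the highest of 10 values for 7 of the 9 genes, against 13.5% of all genes. Control 24 held the lowest for 7, and the share of all genes lowest in that library was not computed. Relative to the median of the other 4 BrapcKO libraries, BrapcKO 05 was 3.04 times as high for Bst2, 2.69 for Oasl2, 2.31 for Gbp3, 1.87 for Parp14, 1.84 for Irf9 and 1.55 for Eif2ak2, and 1.37 for Stat2 and 1.23 for Ifih1. Without it the median log2 fold change of the 9 genes was 0.35 in place of 0.45.

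Homeostatic microglia markers and reactive astrocyte genes were, in sum, higher in every BrapcKO library than in any control. The 20 homeostatic microglia markers, all measured, summed to 446 to 492 CPM in the controls, 584 to 677 CPM in 4 BrapcKO libraries and 1598 CPM in BrapcKO 05. In edgeR 0 of the 20 passed, and their median log2 fold change was 0.59, or 0.30 without BrapcKO 05. Csf1r, the receptor microglia need to survive, was the highest of these markers (84.1 ± 12.2 CPM in control and 144 ± 73.8 CPM in BrapcKO, SD, n = 5). Of 27 reactive astrocyte genes 20 were measured and 8 rose, where 3.12% of all genes did, and their sum was 296 to 337 CPM in the controls, 640 to 1306 CPM in the other BrapcKO libraries and 1638 CPM in BrapcKO 05. Gfap, the intermediate filament of reactive astrocytes, was highest in BrapcKO 05 (1228 CPM) and BrapcKO 06 (855 CPM), whereas the controls lay between 125 and 154 CPM. Endothelial markers overlapped between groups (250 to 405 CPM in control and 347 to 628 CPM in BrapcKO). The sums of the 20 general astrocyte markers (median log2 fold change 0.02) and of the neuronal markers overlapped as well. Of the 12 neuronal markers, 2 rose and 4 fell, where 3.12% of all genes rose and 4.95% fell. Of 16 markers of T, B and natural killer cells Cd4 alone was measured, at 3.31 to 8.97 CPM in the controls and 4.86 to 8.50 CPM in BrapcKO. The part of these markers in the differences of the 9 genes was not tested.

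**Figure D3:**
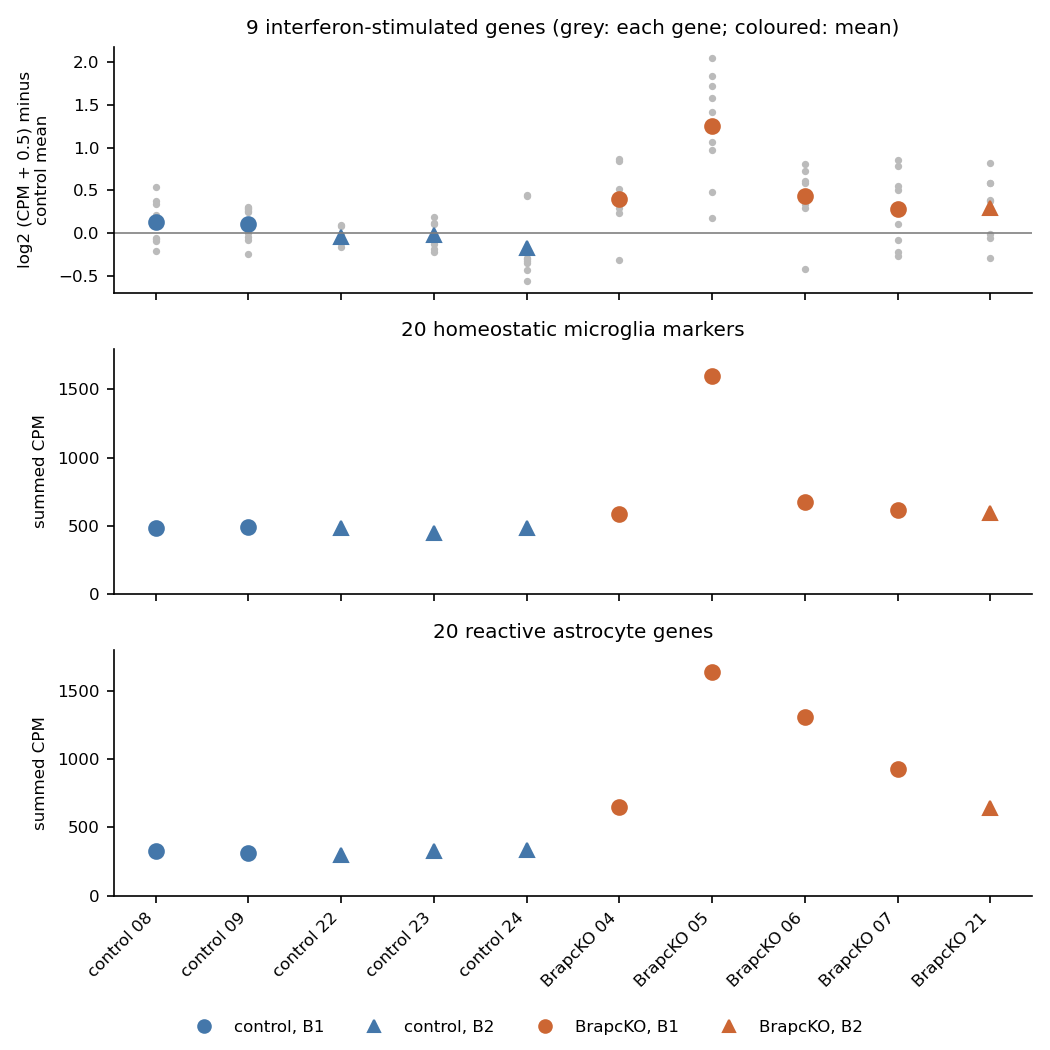
For each library, the 9 genes relative to the control mean on the scale of log2 (CPM + 0.5), with grey points for genes and coloured points for their mean, and the summed CPM of 20 homeostatic microglia markers and of 20 reactive astrocyte genes. BrapcKO 05 is the highest in all 3 panels, and BrapcKO 06 is near it in reactive astrocyte genes (1306 CPM) but not in the 9 genes (mean 0.43) or in microglia markers (677 CPM).

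The title code carried its own differences. With group as the other term, Stat2 was higher in B2 than in B1 (log2 difference 0.42, adjusted p 0.0473), and Ifih1 (-0.60, adjusted p 0.026) and Parp14 (-0.73, adjusted p 0.0454) were lower, in a contrast that 25.1% of all genes passed. Since B2 held 3 controls and 1 BrapcKO library, dropping the code moved Ifih1 to 0.24 and Parp14 to 0.77, and turned Stat2 to -0.10, none of them passing. Within B1 alone the median log2 fold change of the 9 genes was 0.62, with Trim30a at 1.17 (adjusted p 0.217) and Bst2 at 1.18. Within B2, where BrapcKO 21 was the lone knockout and is assumed to vary like the controls, the median was 0.45, with Trim30a at 0.86 (adjusted p 0.301) and Bst2 at 0.94. The interaction of group and code in edgeR passed for 0 of 14276 genes, of which 1069 had an unadjusted p under 0.05. For the 9 genes its adjusted p ran from 0.808 to 0.997, and 0 of them had an unadjusted p under 0.05.

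Both genotype pairs were compared in edgeR with the code as a term. For flox/ko Cre+ against flox/wt Cre- (3 against 3 libraries) the median log2 fold change of the 9 genes was 0.34, with Bst2 at 0.80 (adjusted p 0.337), Trim30a at 0.76 (adjusted p 0.266) and Ifih1 at -0.27 (adjusted p 0.448). In this contrast 0 of the 9 passed, where 4.84% of all genes did, and 0 had an unadjusted p under 0.05, where 19.4% of all genes did. For flox/flox Cre+ against flox/flox Cre- (2 against 2 libraries) the median was 0.83, with Bst2 at 1.69, Oasl2 at 1.60, Trim30a at 1.58 and Gbp3 at 1.33 (adjusted p 0.173, 0.173, 0.131 and 0.101). None passed here either, where 0.736% of all genes did, and 7 had an unadjusted p under 0.05, where 13.5% of all genes did. BrapcKO 05 is 1 of the 2 flox/flox Cre+ libraries, and without it the median was 0.51, with Trim30a at 0.71, Oasl2 at 0.70 and Gbp3 at 0.88. That arm is then BrapcKO 06 alone, so these values describe that library. Without BrapcKO 06, Oasl2, Trim30a, Gbp3 and Parp14 passed, as did 1.41% of all genes, but the arm is then BrapcKO 05 alone, assumed to vary like the other groups, and the calls describe that library. The difference between the genotype contrasts passed in edgeR for 0 of 14276 genes, of which 873 had an unadjusted p under 0.05. Its adjusted p lay between 0.788 and 0.967 for the 9 genes, and 3 of them had an unadjusted p under 0.05.

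**Figure D4:**
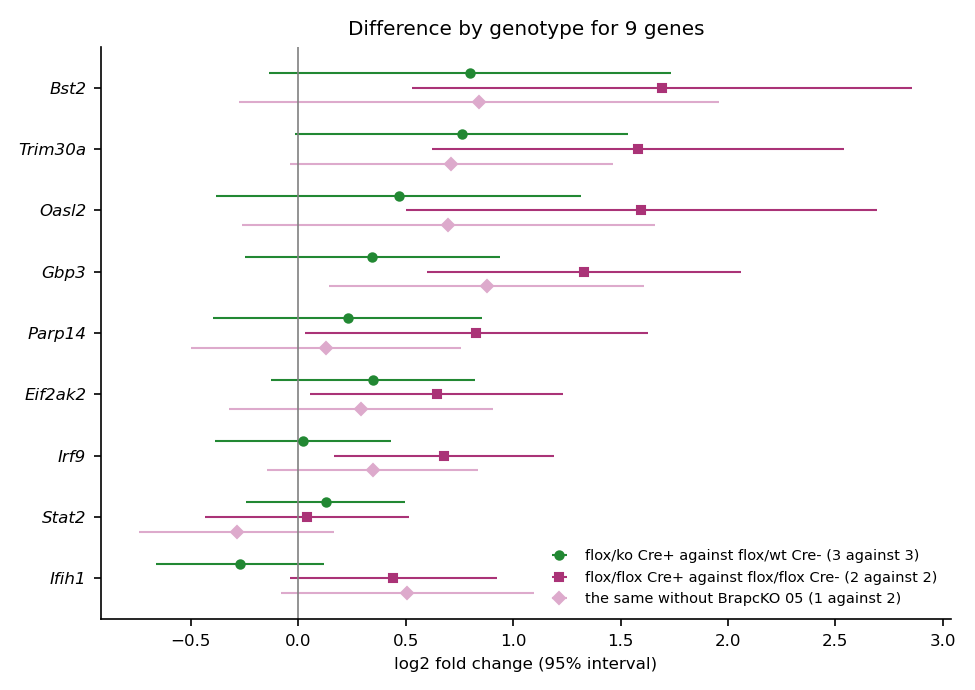
Log2 fold change with its 95% interval for the 9 genes in flox/ko Cre+ against flox/wt Cre- (green), in flox/flox Cre+ against flox/flox Cre- (dark purple), and for the latter without BrapcKO 05 (light purple). The wide flox/flox estimates, such as 1.58 for Trim30a, come to 0.71 for that gene without BrapcKO 05, next to 0.76 in the flox/ko pair. The same 2 estimates are 0.84 and 0.80 for Bst2, 0.88 and 0.34 for Gbp3 and 0.51 and -0.27 for Ifih1, with overlapping intervals for each gene. Without BrapcKO 05 the flox/flox Cre+ arm is BrapcKO 06 alone.

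The rest of the pathway was described with 214 further genes in 9 lists by role, of which 148 were measured. These lists too were chosen with earlier results of these data known. Of these 148, 4 rose (Cxcl16, Tlr7, Parp3 and Ifitm10) and 3 fell (Ly6e, Stat6 and Shisa5) with the title code as a term, where 3.12% of all genes rose and 4.95% fell. An unadjusted p under 0.05 was found for 28 (18.9%), a smaller share than the 22.2% of all genes. Positive fold changes were found for 95 of the 148 (64.2%, against 51.7% of all genes), with a median of 0.12, or 0.04 without BrapcKO 05 and 0.02 with the Y-linked level as a term. Among the genes most used to read an interferon response, Isg15, Mx1, Mx2, Oas1a, Oas2, Oas3, Cxcl10, Ifnb1 and Ifng had no row in the count table. Their levels are therefore unknown here.

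**Figure D5:**
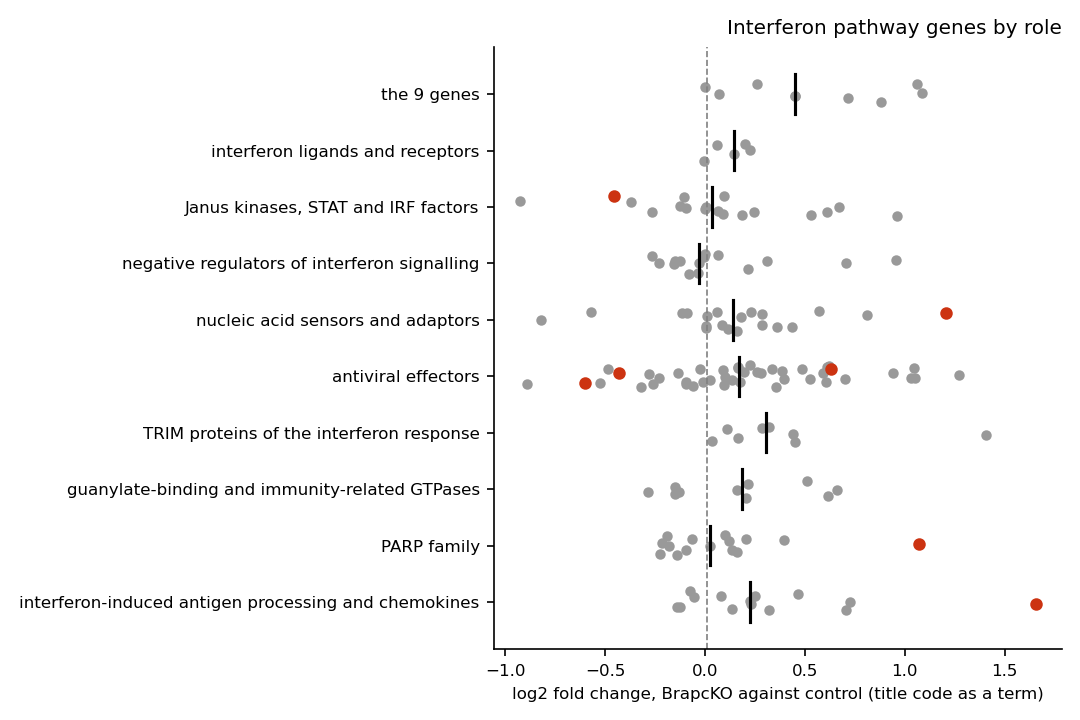
Log2 fold change of BrapcKO against control, with the title code as a term, for the 9 genes and for the measured members of 9 pathway lists, 1 point per gene. Black bars mark medians, the dashed line the median of all genes (0.01), and red points the 7 genes with an adjusted p under 0.05, which are spread over 5 lists with 4 to the right and 3 to the left.

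Of the interferon ligands and receptors 5 of 16 were measured, with a median of 0.15. Ifngr1 and Ifngr2, the chains of the receptor for interferon gamma, differed by 0.23 and 0.15 (adjusted p 0.236 and 0.362). The 18 measured Janus kinases, STAT and IRF factors had a median of 0.04 (-0.01 without BrapcKO 05), and 1 of them fell, Stat6, best known for its answer to interleukin-4 (-0.46, adjusted p 0.0324). The 15 negative regulators of the signal had a median of -0.03, with Usp25 at -0.23 and Ptpn6 at 0.95 (adjusted p 0.14 and 0.207).

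Of 20 nucleic acid sensors and adaptors 1 rose, Tlr7, the endosomal receptor for single-stranded RNA (1.21, adjusted p 0.0463). Tlr7 stood at 3.87, 4.37, 3.32, 3.00 and 1.93 CPM in the controls and at 8.66, 18.0, 4.86, 7.23 and 6.23 CPM in the BrapcKO libraries, without overlap. Cxcl16, a membrane-bound chemokine that attracts T cells, rose among the 14 antigen processing genes and chemokines (1.66, adjusted p 0.0353), from 0.736 ± 0.217 CPM to 2.59 ± 1.77 CPM (SD, n = 5), with 5.73 CPM in BrapcKO 05. Parp3, an enzyme of the response to DNA breaks, rose among the 15 PARP genes (1.07, adjusted p 0.0212), from 3.03 ± 0.379 CPM to 6.43 ± 2.50 CPM, and its highest value was in BrapcKO 06 (10.7 CPM). The homeostatic microglia and reactive astrocyte sums given above were also higher in every BrapcKO library than in any control. Both sums were highest in BrapcKO 05, where Parp3 was not, and the part of these markers was not tested.

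The 44 measured antiviral effectors had a median of 0.17, with 1 higher and 2 lower. Ifitm10, of the family of interferon-induced membrane proteins, rose (0.63, adjusted p 0.0202). Ly6e, a surface protein known to hinder entry of some viruses, fell (-0.60, adjusted p 0.00558), from 97.5 ± 15.1 CPM to 74.1 ± 16.3 CPM, although the groups overlapped before the code was taken into account. Shisa5, a membrane protein of the endoplasmic reticulum linked to cell death, fell (-0.43, adjusted p 0.0425). The 8 TRIM genes had a median of 0.30 (0.07 with the Y-linked term). The largest estimate, that of Trim30d, was imprecise (1.41, SE 0.73, adjusted p 0.288). The 10 GTPases had a median of 0.18, which turned to -0.02 without BrapcKO 05 and to -0.05 with the Y-linked term. Gbp2 and Gbp5 had the smallest p among them (0.66 and 0.51, adjusted p 0.167 and 0.245).

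Each of these 7 calls was lost in at least 1 fit that left out a library, while the fold changes kept their sign. Calls over all genes fell in some of these fits as well, from 1152 to 406 without BrapcKO 21, 558 without control 08 and 516 without control 09. Ly6e passed without any 1 library other than BrapcKO 21 (adjusted p 0.0558 without it). Parp3 and Ifitm10 lost their calls without control 08, control 09 or BrapcKO 21 (at most 0.142 and 0.153), and Cxcl16 without control 08, 09, 22 or 24 or BrapcKO 21 (at most 0.14). Tlr7 passed only without BrapcKO 05 or 06 (at most 0.208 otherwise), Stat6 only without control 24, BrapcKO 04 or 05 (at most 0.137), and Shisa5 only without control 24 or BrapcKO 05 (at most 0.3). With group as the only term Cxcl16, Parp3 and Tlr7 passed and the other 4 did not.

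Some reads of the 9 genes can also belong to neighbours or copies. Of the stretches of 50 bases in its exons, Trim30a shared 5.98% with other genes, mainly Trim30d, and Gbp3 shared 3.75%, mainly with Gbp7. Trim30d stood at 0.168 CPM in BrapcKO 05, where Trim30a stood at 9.43 CPM. Irf9 overlapped Rnf31 on the same strand over 123 bases of exon and Eif2ak2 a predicted antisense gene over 174 bases, and since the sources used here do not say whether strand was counted, reads from these stretches cannot be told apart. Bst2 and Ifih1 shared no such stretch.

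The members of the group differed in how closely they followed each other. Over the 10 libraries, Pearson's r of a gene with the mean of the 8 others, on log2 CPM, was 0.964 for Trim30a, 0.953 for Oasl2, 0.931 for Gbp3 and 0.922 for Irf9. It was 0.845 for Eif2ak2, 0.790 for Parp14 and 0.756 for Bst2, then 0.480 for Ifih1 and -0.179 for Stat2. Leaving out BrapcKO 05 left Trim30a at 0.930 and took Bst2 to 0.173 and Stat2 to -0.776. These values describe libraries that share a group, a code and BrapcKO 05, and carry no test.

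By the same measure, the genes of the whole table nearest to the mean of the 9 were Cd52 (r = 0.986), Cd53 (0.985), Dock2 (0.975), Hexa (0.975), Slc7a7 (0.970), Adgre1 (0.970), Ptprc (0.969) and Tyrobp (0.969). Their Spearman's rho lay between 0.806 and 0.952 over the 10 libraries, and their r without BrapcKO 05 between 0.858 and 0.938. Ptprc, the leukocyte phosphatase CD45, stood at 5.05 to 7.17 CPM in the controls, at 12.4, 12.1, 10.6 and 6.55 CPM in BrapcKO 04, 06, 07 and 21 and at 38.2 CPM in BrapcKO 05.

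Among the 8 genes with a promoter window (Parp14 was not searched), genes with and without the ISRE core were found at both high and low fold changes. Trim30a, Gbp3, Bst2 and Eif2ak2, with the core in the windows shown above, had log2 fold changes of 1.06, 0.71, 1.09 and 0.45, and Stat2 and Ifih1, also with the core, 0.07 and 0.00. Oasl2 and Irf9, without it in these windows, had 0.88 and 0.26. Over the 396 genes tested that hold the core, the median was 0.04 and 9.85% passed, 12 of them higher and 27 lower. Of all 14276 genes, with or without a promoter window, 8.07% passed, 3.12% higher and 4.95% lower.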

How the data were processed

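RNA-seq of cerebral cortex was compared between 5 BrapcKO and 5 control libraries. Per the labels' protocols, RNA was extracted with Trizol, treated with DNase and depleted of ribosomal RNA. The authors deposited read counts of 14276 genes with no scaling. Per the submitters' processing notes, these were made with FastQC, Subread, featureCounts, DESeq2 and edgeR on mm10 and GRCm38. The sources used here give no versions, settings or strandedness. Of 14276 identifiers 14271 matched GENCODE M21, which gave the symbols.

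Tests ran in edgeR 4.0.16 by quasi-likelihood (TMM, robust, title code and group as terms) in R 4.3.3, with Benjamini-Hochberg adjustment over all genes and a threshold of 0.05. The low-count filter of edgeR removed 0 genes. CPM were scaled by TMM, and 0.5 was added before logs. DESeq2 1.42.0, limma-voom 3.58.1, other scalings and filters, group as the only term, a Y-linked term, single codes and leaving out each library were alternatives. Leave-one-out fits with group as the only term and other settings of the genotype contrasts were chosen after seeing the data. Fits were tested on simulated data. Motifs were searched in RefSeq promoters (GRCm38.p6).

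The 9 genes and the pathway and marker lists were chosen with earlier results of these data known. From each pathway list the text names genes with an adjusted p under 0.05, up to 4 by smallest p, and otherwise the 2 with the smallest p. It also takes the 8 genes of known name nearest in pattern by Pearson's r, and may name the 2 highest genes of each marker list and Brap. Precision rests on counts of 19 to 634 per value for the 9 genes.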

Additional observations from a re-analysis of the deposited data

Results flagged for a closer look

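In groups of 5 libraries, a value was set apart when its gap to the nearest other library, divided by the group's range, passed Dixon's limit of 0.71. Of 18 groups (9 genes in 2 groups) 5 held such a value. The limit stands for about 1 in 20 groups of independent, normally distributed values. These groups are CPM of genes from the same libraries, so that rate does not apply to the count. The share over all genes was not computed. In BrapcKO these were the values of BrapcKO 05 for Oasl2 (5.39 CPM), Trim30a (9.43 CPM) and Gbp3 (11.7 CPM), each the highest of its group, with gaps of 0.880, 0.878 and 0.718 of the range. In control they were Parp14 in control 08 (6.51 CPM, gap 0.711) and Bst2 in control 24 (1.85 CPM, gap 0.885), also the highest of their groups. The summed homeostatic microglia markers were 1598 CPM in BrapcKO 05, and 487 and 485 CPM in control 08 and 24, against 446 to 492 CPM over all controls.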

How the results depend on the processing

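No paired analysis was possible because the groups share no replicate numbers. With the title code as a term 0 of the 9 genes, 7 of 148 pathway genes and 1152 of all genes passed, and the median of the 9 genes was 0.45. With group as the only term these were 1, 3, 617 and 0.77, and Stat2 turned to -0.10. With the Y-linked term 1 pathway gene and 297 of all genes passed, and the median of the 9 genes was 0.29 and Ifih1 was -0.054. Within B1 0 pathway genes and 415 of all genes passed, and within B2 0 and 54, with Ifih1 at -0.13. The likelihood-ratio test and DESeq2 each passed 1 of the 9 (Trim30a), and limma-voom gave Ifih1 as -0.0068. The flox/flox median was 1.19 without the code. The cause of these shifts was not tested, and the fits within a code also held fewer libraries. Leaving out 1 library at a time, the 9 genes had 0 to 1 calls (1 without BrapcKO 05 or 06), a median of 0.35 to 0.62, Ifih1 between -0.055 and 0.081 and Stat2 between -0.0061 (without BrapcKO 05) and 0.12. Pathway calls ran from 0 (without BrapcKO 21) to 8, with 1 without control 08 or 09, 3 without control 22 and 4 without control 23 or BrapcKO 07. Calls over all genes ran from 406 (without BrapcKO 21) to 1454, with 558 and 516 without control 08 and 09. The flox/flox median ran from 0.51 to 1.31 with 0 to 4 calls, and the flox/ko median from 0.24 to 0.41 with 0. Trim30a, Gbp3, Oasl2, Eif2ak2, Parp14, Irf9 and Bst2 stayed positive in the 21 alternatives to the model with the title code. Genes near 1 CPM, Bst2 and Oasl2, rest on as few as 19 and 24 counts, so their folds are the least precise. Group, title code, Cre and the Y-linked level, and with it sex, overlap in this design and cannot be fully told apart.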

Other observations

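Further myeloid lists bear values that belong in no comparison above. Of 22 disease-associated microglia markers 20 were measured and 3 rose (3.12% of all genes did), with a median log2 fold change of 0.73, or 0.40 without BrapcKO 05. Their sum was led by Apoe, a lipid carrier, and Fth1, a ferritin chain, and overlapped between groups, at 1841 to 3146 CPM in control, 2177 to 2353 CPM in the other BrapcKO libraries and 3843 CPM in BrapcKO 05. Of 13 markers of border macrophages and monocytes 8 were measured, with sums of 52.1 to 79.6 CPM in control and 73.3 to 91.8 CPM in BrapcKO and 89.2 CPM in BrapcKO 05. Vcan, a matrix proteoglycan, was the 1 of these that rose (0.45, adjusted p 0.00705), and Mrc1, the mannose receptor of border macrophages, did not pass (-0.15, adjusted p 0.532). The 12 neuronal markers summed to 11199 to 12475 CPM in control and 10797 to 12015 CPM in BrapcKO. By edgeR 2 of them were higher and 4 lower, where 3.12% of all genes were higher and 4.95% lower.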
